A study of Homo sapiens with 12 samples.

Results

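The expression of 10 genes that make, break down or channel glycerophospholipids and triglycerides was followed in HepG2 cells, which were grown out of a human liver tumour, after insulin stimulation. The genes were GPCPD1, CHKA, PCYT1A, CEPT1, PEMT, GPAM, AGPAT2, LPIN1, LPIN2 and DGAT2, 10 of the 26364 genes in the count table. GPCPD1 was chosen because it had one of the largest late rises in these libraries, so its values at 240 min are given as a description with no test. The other 9 were picked by function, with earlier results of these data known. All 10 passed the filter on low counts, which left 13852 genes for testing.

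RNA-seq was made at 0, 5, 10, 30 and 240 min after insulin stimulation, with 2 libraries at each time. From cells fixed with a pair of cross-linkers, 1 library of insulin receptor (IR) ChIP-seq was made. The library titles give the times as minutes after insulin stimulation. They do not say whether insulin stayed on the cells up to each time. The treatment text filed with the RNA-seq libraries gives 16 h in EMEM medium without serum, then 3 nM insulin for 5 min. It says so also for the libraries at 0 min and 240 min. The text filed with the ChIP-seq library gives 2 days without serum. It gives 2 days of insulin and BSA, a 30 min washout and 3 nM insulin, with an RNA extraction kit. The RNA-seq libraries carry a DNA extraction, so each text names the material of the other assay. HepG2 is 1 tumour line, and the labels name no genetic change in it. The labels do not say whether replicates came from separate cultures, so p-values measure only the spread between these libraries.

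Phosphatidylcholine, the main phospholipid of cell membranes and of the coat of lipoproteins and lipid droplets, is made from choline through phosphocholine and CDP-choline, the Kennedy pathway. In liver it is also made by methylation of phosphatidylethanolamine. The diacylglycerol that accepts the CDP-choline head group comes from glycerol 3-phosphate through acylation steps and a phosphatase step, and the same diacylglycerol is the precursor of triglyceride, whose synthesis and export by hepatocytes are under the control of insulin.

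Libraries held 18347109 to 45005769 counts on genes, and a further 1.59% to 2.36% of the counts fell on ERCC spike-in transcripts. The 10 hepatocyte markers examined lay between 44.7 and 40927 CPM, which are counts scaled by the TMM-adjusted library total, among them ALB, APOB and AFP. Of the 5 markers of leukocytes, endothelium and fibroblasts, PTPRC was at 0 in every library, CD68 lay between 36.3 and 45.3 CPM and the others were under 3.00 CPM. Summed over these 5 markers, the level was 44.9 to 49.7 CPM at 0 min and 46.9 CPM in both libraries at 240 min. With edgeR's quasi-likelihood test, 5676 genes passed an adjusted p of 0.05 at 240 min against 0 min, 2847 higher and 2829 lower. Scaling by the spike-ins instead of TMM left 1059 genes, 331 higher and 728 lower, and moved the median log2 fold change of all genes to -0.12, and limma on log2(TPM + 1) gave 2720 higher and 1673 lower. In RNA from whole cultures, fewer cells of a type and less RNA per cell cannot be told apart.

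Of the 9 genes tested, 3 were called higher at 240 min than at 0 min, and 3 were called lower. GPCPD1, which was not tested, is described below. PCYT1A rose by 32.7%, LPIN1 by 32.9% and GPAM by 11.6%, while CEPT1 fell to 0.606 times its starting level, LPIN2 to 0.779 times and CHKA to 0.878 times. PEMT, AGPAT2 and DGAT2 did not pass the test. Thus 6 of the 9 genes tested, 66.7%, passed the threshold, where 41.0% of all genes did. The 3 that rose stand beside 20.6% of all genes called higher, and the 3 that fell beside 20.4% called lower. The median log2 fold change of the 9 was 0.023, and that of all genes was -0.0026, so the set moved in both directions about a middle near 0. With spike-in scaling CEPT1 alone of the 9 still passed, and each of the 6 kept its direction. On the log2 scale, LPIN2 (-0.36 to -0.48) and CHKA (-0.19 to -0.30) lost their calls at larger falls. PCYT1A (0.41 to 0.29), LPIN1 (0.41 to 0.28) and GPAM (0.16 to 0.046) lost theirs at smaller rises. Replicates differed in their spike-in share, with 1.65% against 1.91% (240 min), 1.66% against 1.85% (30 min) and 1.73% against 2.36% (10 min). Closer pairs were those of 5 min (1.63% against 1.72%) and 0 min (1.59% in both). Scaling by spike-in totals carries such differences into every gene, so a lost call does not show that a gene was unchanged. How many calls were lost to this spread was not tested. PCYT1A, CEPT1, LPIN1 and LPIN2 passed with any 1 of the 10 libraries left out, and CHKA and GPAM did not.

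**Figure D1:**
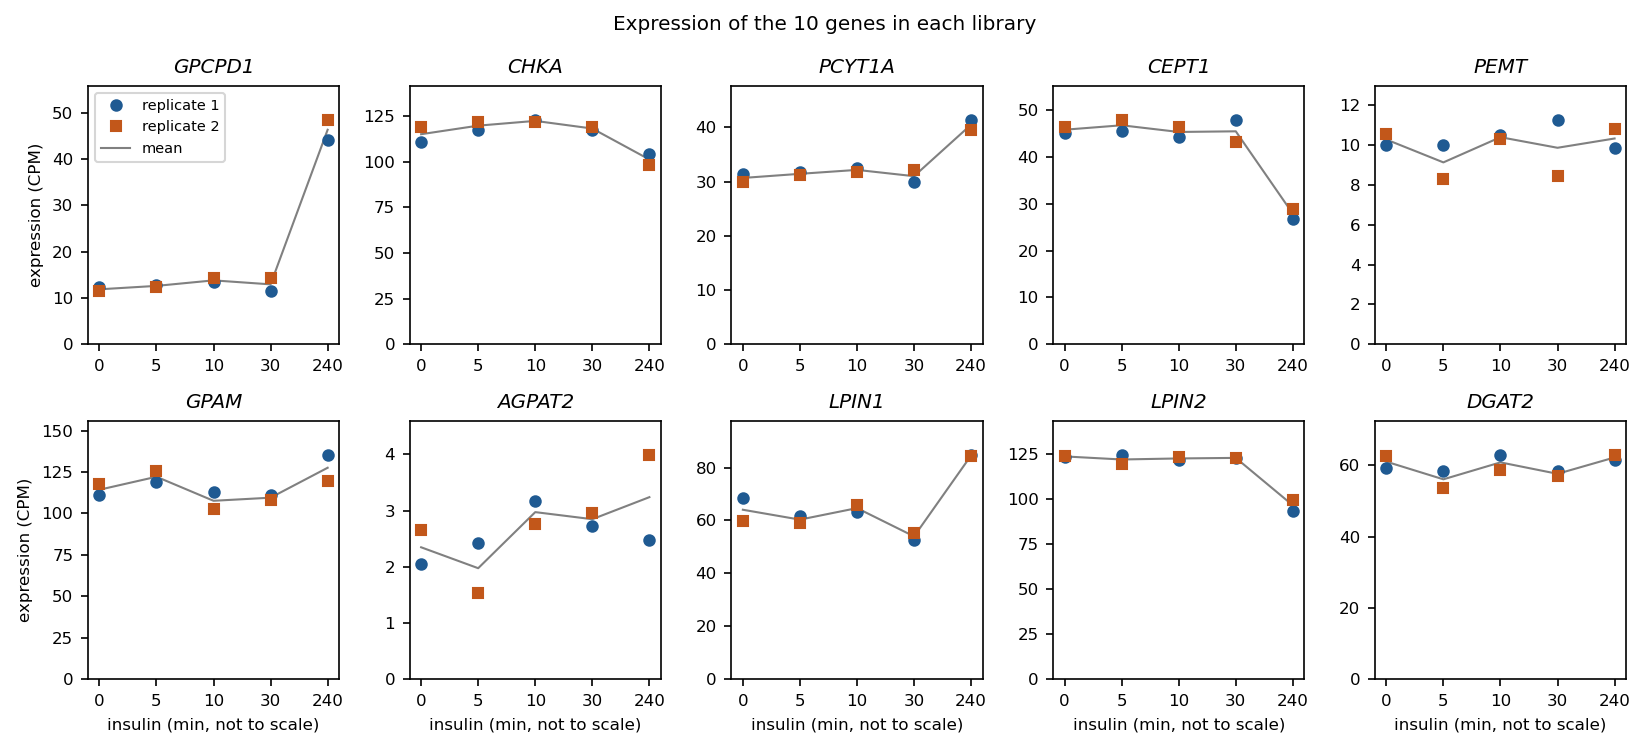
Expression of the 10 genes in CPM (y axis, starting at 0, a scale for each gene) at each time after insulin stimulation (x axis, not to scale), with 1 point per library and a line through the mean of the 2 libraries. GPCPD1 stands at 44.2 and 48.5 CPM at 240 min against 11.5 to 14.3 CPM in the 8 earlier libraries, CEPT1, LPIN2 and CHKA drop at 240 min, and PEMT and DGAT2 show no late step.

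GPCPD1 encodes an enzyme that splits glycerophosphocholine, a breakdown product of phosphatidylcholine, into choline and glycerol 3-phosphate, and both products can re-enter the pathways described here. In hg19 it lies at chr20:5525080-5591672 on the minus strand. Its level was 12.3 and 11.5 CPM in the libraries at 0 min, 12.8 and 12.4 CPM at 5 min, 13.4 and 14.2 CPM at 10 min, 11.6 and 14.3 CPM at 30 min, and 44.2 and 48.5 CPM at 240 min. Both late libraries stood far above the 8 others, which lay between 11.5 and 14.3 CPM. The late level was 3.92 times that at 0 min, 1.97 on the log2 scale, and 3.61 times that at 30 min. These values chose the gene. They rest on 265 and 510 counts at 0 min and on 1105 and 923 counts at 240 min. Without any 1 library the log2 fold change stayed between 1.90 and 2.04, and it was 1.85 with spike-in scaling.

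In a list of 2422 genes that averaged 5 CPM or more and were called higher at 240 min, GPCPD1 had rank 2 by fold change. Its place in this list restates the rise that chose it and is no test of that rise. CYP1A1, a cytochrome P450 that oxidizes aromatic hydrocarbons, ranked directly above GPCPD1 with a log2 fold change of 2.29. CXCL8, a chemokine that attracts neutrophils, ranked directly below it with 1.67. Neither the position nor the neighbours of GPCPD1 were tested, since the ranking used the same values.

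Before 240 min GPCPD1 did not pass the test. Its log2 fold change against 0 min was 0.099 at 5 min (standard error, SE, 0.103, adjusted p = 0.692, edgeR), 0.23 at 10 min (SE 0.101, adjusted p = 0.912, edgeR) and 0.12 at 30 min (SE 0.102, adjusted p = 0.796, edgeR). The unadjusted p at 10 min was 0.0367, and 5.13% of all genes had an unadjusted p under 0.05 in that comparison. The step in its level thus lay between 30 min and 240 min, a span in which no other time was sampled.

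The genes most like GPCPD1 over the 10 libraries, by Pearson correlation of log2 CPM among 10387 genes that averaged 5 CPM or more, were FASTKD2 (r = 0.997), MAT2A (r = 0.995), DDX18 (r = 0.994), MRPL30 (r = 0.994) and XPO4 (r = 0.993). MAT2A, the methionine adenosyltransferase that makes S-adenosylmethionine, rose from 153.8 CPM at 0 min to 337.7 CPM at 240 min. The log2 fold changes of the other 4 were smaller than that of GPCPD1, from 0.23 for MRPL30 to 0.57 for FASTKD2. A gene that stepped up at 240 min alone gives such a correlation, whatever its size. Among the other genes of the set, r with GPCPD1 was 0.98 for PCYT1A, 0.88 for LPIN1, 0.55 for GPAM, 0.44 for DGAT2, 0.14 for PEMT, -0.88 for CHKA, -0.97 for LPIN2 and -0.98 for CEPT1. AGPAT2 had a mean under 5 CPM and was not compared. Both libraries at 240 min enter each of these correlations.

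The 3 steps from choline to phosphatidylcholine went in different directions. CHKA, choline kinase alpha, phosphorylates choline in the first step (chr11:67820326-67888858, minus strand, hg19). Its level was 110.9 and 119.3 CPM at 0 min, between 117.3 and 123.1 CPM in the 6 libraries from 5 to 30 min, and 104.1 and 98.5 CPM at 240 min. Both late libraries lay below the 8 others, with a log2 fold change at 240 min against 0 min of -0.19 (SE 0.051, adjusted p = 0.00627, edgeR). The call rested on single libraries, since it was -0.13 without 0 min replicate 2 (adjusted p = 0.129) and -0.15 without 240 min replicate 2 (adjusted p = 0.0634), and limma on log2(TPM + 1) gave -0.15 (adjusted p = 0.0878).

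PCYT1A encodes the alpha form of the enzyme that makes CDP-choline from phosphocholine, the rate-limiting step of the pathway (chr3:195965253-196014584, minus strand, hg19). It stood at 31.5 and 29.9 CPM at 0 min, between 29.9 and 32.5 CPM from 5 to 30 min, and at 41.4 and 39.6 CPM at 240 min. The late libraries did not overlap the earlier ones, and the log2 fold change was 0.41 (SE 0.064, adjusted p = 4.25e-05, edgeR). With spike-in scaling it was 0.29 (adjusted p = 0.401). PCYT1B, the paralogue for the same step, also rose, by 0.36 on the log2 scale (SE 0.056, adjusted p = 4.35e-05, edgeR), or by 0.24 with spike-in scaling (adjusted p = 0.483). In TPM, an abundance scaled for transcript length, PCYT1A made up 65.5% ± 0.593 (SD, n = 2) of the sum of both genes at 0 min and 66.0% ± 1.91 (SD, n = 2) at 240 min. The summed level of both in TPM went from 71.8 ± 1.0 (SD, n = 2) to 96.5 ± 0.479 (SD, n = 2), so the pair rose with its composition within the replicate spread.

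CEPT1, the choline/ethanolamine phosphotransferase that joins CDP-choline or CDP-ethanolamine to diacylglycerol, had the largest fall of the set (chr1:111682249-111727724, plus strand, hg19). Its level was 45.1 and 46.5 CPM at 0 min, between 43.1 and 48.0 CPM from 5 to 30 min, and 26.8 and 28.9 CPM at 240 min. The late libraries lay far below all others. At 240 min the log2 fold change was -0.72 against 0 min (SE 0.068, adjusted p = 1.03e-07, edgeR) and -0.71 against 30 min (SE 0.069, adjusted p = 1.54e-07, edgeR). It passed in all 11 alternative analyses.

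The other enzymes of this last step were not called lower. CHPT1, the choline-specific phosphotransferase, had a log2 fold change of -0.11 (SE 0.046, adjusted p = 0.0754, edgeR), and EPT1, the ethanolamine-specific one, rose by 0.24 (SE 0.050, adjusted p = 0.000606, edgeR), or by 0.12 with spike-in scaling (adjusted p = 0.756). In TPM, CEPT1 made up 10.8% ± 0.487 (SD, n = 2) of the sum of the 3 genes at 0 min and 6.95% ± 0.140 (SD, n = 2) at 240 min. The share of EPT1 went from 18.6% ± 0.563 (SD, n = 2) to 23.4% ± 0.000753 (SD, n = 2), while that of CHPT1 was 70.6% ± 0.0766 (SD, n = 2) and then 69.7% ± 0.140 (SD, n = 2). The summed TPM of the 3 was 467.4 ± 6.02 (SD, n = 2) at 0 min and 453.2 ± 20.7 (SD, n = 2) at 240 min, a difference smaller than the late replicate spread.

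PEMT, which methylates phosphatidylethanolamine to phosphatidylcholine and is most active in liver, did not change detectably (chr17:17408877-17495017, minus strand, hg19). Its level was 10.0 and 10.5 CPM at 0 min, between 8.28 and 11.3 CPM from 5 to 30 min, and 9.87 and 10.8 CPM at 240 min. Both libraries at 5 min lay below those at 0 min, which the late libraries overlapped, and the late log2 fold change was -0.0050 (SE 0.124, adjusted p = 0.977, edgeR). With 173 to 469 counts per library, the SE was larger than the 0.068 of the better-covered CEPT1.

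PEMT was the 1 gene of the 10 with an IR peak on its body or within 5 kb, against 15.7% of all tested genes (2175 of 13852). The peak, chr17:17494646-17495473 in hg19, is 828 bases wide and its centre lies 42.5 bases from the PEMT start. Its score of 1663 ranked 79 among the 1971 peaks of the library, whose median score was 79. HOMER assigned the peak to the antisense lncRNA RP11-524F11.2, whose start it placed 317 bases away, farther than the PEMT start given here, and the GENCODE annotation of GRCh37 has an exon of that lncRNA on the plus strand from 17494742 to 17496900, across most of the peak. The first 200 bases of the peak beyond the PEMT start are shown because they are the stretch before the 1 start site of the set that the IR library marked. They cover chr17:17495018-17495217 in GRCh37 on the minus strand, 5′ to 3′, with 60.5% G or C. An exon of another PEMT transcript model reaches to 17495022, 5 bases into the stretch at its 3′ end. It has no capitals, since the letters CACGTG, searched below, are not in it.

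PEMT: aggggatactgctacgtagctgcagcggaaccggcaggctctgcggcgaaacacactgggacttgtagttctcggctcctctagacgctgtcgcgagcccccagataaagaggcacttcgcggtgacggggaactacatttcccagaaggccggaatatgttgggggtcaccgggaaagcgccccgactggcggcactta

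The nearest peak to CHKA lay 6514 bases from the gene, with a score of 100, and was counted only when the window was widened to 20 kb. For GPCPD1 the nearest peak lay 139321 bases away. The other 7 genes were 198865 bases or more from a peak. The peaks come from 1 library with no replicate, so these distances carry no error.

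Of the genes that supply diacylglycerol, GPAM, the mitochondrial glycerol-3-phosphate acyltransferase that takes the first acylation step, rose slightly (chr10:113909622-113943537, minus strand, hg19). Its level was 111.1 and 117.6 CPM at 0 min, between 102.6 and 125.4 CPM from 5 to 30 min, and 135.6 and 119.6 CPM at 240 min. The late libraries lay above those at 0 min, and the lower of them lay within the range of those at 5 min. On the log2 scale the rise was 0.16 (SE 0.061, adjusted p = 0.0435, edgeR). The rise did not pass with DESeq2 (adjusted p = 0.0874), with limma on log2(TPM + 1) (adjusted p = 0.0851) or with spike-in scaling (0.046, adjusted p = 0.920). It was 0.060 without 240 min replicate 1 (adjusted p = 0.544), 0.12 without 0 min replicate 1 (adjusted p = 0.235) and 0.20 without 0 min replicate 2 (adjusted p = 0.0623).

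AGPAT2 makes phosphatidic acid from lysophosphatidic acid, and its loss causes a congenital lipodystrophy (chr9:139567595-139581911, minus strand, hg19). It was the least expressed gene of the set, with 32 to 118 counts per library. Its level was 2.04 and 2.65 CPM at 0 min, between 1.53 and 3.17 CPM from 5 to 30 min, and 2.48 and 4.0 CPM at 240 min, where the libraries overlapped those at 0 min. Its late log2 fold change was 0.39 (SE 0.230, adjusted p = 0.194, edgeR). It was 0.72 without 240 min replicate 1 (adjusted p = 0.0374) and 0.033 without 240 min replicate 2 (adjusted p = 0.936), so a change of this gene was not resolved at this depth. In TPM, AGPAT2 made up 1.73% ± 0.230 (SD, n = 2) of the sum of AGPAT1 to AGPAT5 at 0 min, of which AGPAT1 made up 64.5% ± 0.154 (SD, n = 2).

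The lipins dephosphorylate phosphatidic acid to diacylglycerol, and LPIN1 is also known as a transcriptional coactivator in liver. LPIN1 (chr2:11817705-11967533, plus strand, hg19) stood at 68.3 and 59.8 CPM at 0 min, 61.7 and 58.9 CPM at 5 min, 63.3 and 66.0 CPM at 10 min, 52.7 and 55.2 CPM at 30 min, and 84.9 and 84.2 CPM at 240 min. It was lowest in both libraries at 30 min and highest in both at 240 min. The log2 fold change at 240 min was 0.41 against 0 min (SE 0.060, adjusted p = 2.13e-05, edgeR) and 0.65 against 30 min (SE 0.062, adjusted p = 1.33e-07, edgeR). With spike-in scaling the first of these was 0.28 (adjusted p = 0.395), and the second kept its call (0.66, adjusted p = 0.0121).

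At 30 min LPIN1 was 0.847 times its level at 0 min, a log2 fold change of -0.24 (SE 0.062, adjusted p = 0.167, edgeR), with an unadjusted p of 0.00105. The dip did not pass in the 10-library model. It passed with edgeR's likelihood ratio test (adjusted p = 0.0492), without the filter on low counts (adjusted p = 0.0247) and without 0 min replicate 2 (-0.34, adjusted p = 0.0386), and 9 of the 11 alternative analyses did not call it. In TPM the level was 28.9 ± 1.5 (SD, n = 2) at 0 min and 25.0 ± 0.366 (SD, n = 2) at 30 min.

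LPIN2 (chr18:2916992-3011945, minus strand, hg19) fell as LPIN1 rose. Its level was 123.2 and 123.8 CPM at 0 min, between 119.0 and 124.5 CPM from 5 to 30 min, and 93.4 and 99.3 CPM at 240 min. The 8 earlier libraries lay close together and both late ones below them. The log2 fold change was -0.36 at 240 min against 0 min (SE 0.049, adjusted p = 8.82e-06, edgeR) and -0.35 against 30 min (SE 0.049, adjusted p = 1.43e-05, edgeR), and with spike-in scaling the first was -0.48 (adjusted p = 0.0955). LPIN3, the third lipin, fell by 0.53 on the log2 scale (SE 0.072, adjusted p = 8.72e-06, edgeR), and by 0.64 with spike-in scaling (adjusted p = 0.0208).

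The lipin transcripts shifted in make-up while their sum in TPM moved less. In TPM, LPIN2 was the most abundant at 0 min, with 51.6% ± 0.548 (SD, n = 2) of the sum of the 3, before LPIN1 with 30.6% ± 1.64 (SD, n = 2) and LPIN3 with 17.8% ± 1.09 (SD, n = 2). At 240 min LPIN1 held 43.4% ± 1.88 (SD, n = 2) and LPIN2 42.8% ± 2.07 (SD, n = 2), which overlapped between libraries, and LPIN3 held 13.7% ± 0.189 (SD, n = 2). Meanwhile the summed TPM of the 3 went from 94.5 ± 0.185 (SD, n = 2) to 91.3 ± 1.03 (SD, n = 2). At 30 min the share of LPIN1 was 27.0% ± 0.0204 (SD, n = 2), the lowest of the 5 times. The shares are ratios within a library and do not depend on the scaling between libraries, whereas the sum does. With spike-in scaling the log2 fold changes were 0.28 for LPIN1, -0.48 for LPIN2 and -0.64 for LPIN3. The sum was not computed on that scale.

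**Figure D2:**
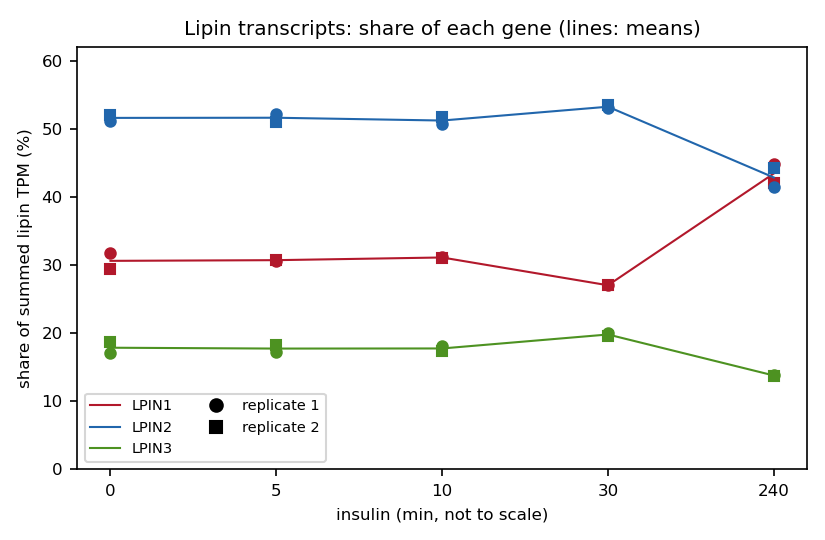
Share of each lipin gene in the summed lipin TPM of a library (y axis, percent, starting at 0) at each time after insulin stimulation (x axis, not to scale), with 1 point per library and lines through the means. LPIN1 goes from 30.6% at 0 min to 43.4% at 240 min, where it meets LPIN2 at 42.8%, and LPIN3 falls from 17.8% to 13.7%.

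A promoter stretch of each gene of this pair is shown because the genes moved in opposite directions at 240 min. Each is 250 bases before a start of the gene, from RefSeq on GRCh38.p14, 5′ to 3′ on the strand of the gene. LPIN1 is chr2:11746382-11746631, plus strand, 1 of 3 windows of that gene, and LPIN2 is chr18:3013145-3013394, minus strand, the 1 of 2 windows that holds CACGTG and was printed for that reason. The other LPIN2 window, chr18:3011898-3012197, does not hold it. Its coordinates contain 3011945, the LPIN2 start given above in hg19, though the builds differ. The LPIN1 windows not printed are chr2:11677294-11677593 and chr2:11724065-11724364. Neither printed window was matched to the hg19 start given above for its gene. GRCh38 is later than the build of the files, and which start the HepG2 transcripts use was not tested. Capitals mark CACGTG.

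LPIN1: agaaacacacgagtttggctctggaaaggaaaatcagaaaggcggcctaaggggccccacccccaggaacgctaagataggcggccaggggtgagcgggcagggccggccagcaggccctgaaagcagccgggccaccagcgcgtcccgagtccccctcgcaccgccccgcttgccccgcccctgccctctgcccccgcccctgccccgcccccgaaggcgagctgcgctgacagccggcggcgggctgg

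LPIN2: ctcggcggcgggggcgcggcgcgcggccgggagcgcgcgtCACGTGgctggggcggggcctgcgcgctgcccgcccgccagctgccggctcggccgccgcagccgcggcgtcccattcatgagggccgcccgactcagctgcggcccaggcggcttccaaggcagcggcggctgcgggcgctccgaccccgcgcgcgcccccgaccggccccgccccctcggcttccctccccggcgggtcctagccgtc

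The LPIN1 stretch is 72.4% G or C with 22 CpG dinucleotides, and the LPIN2 stretch is 83.6% G or C with 45. RefSeq windows from 250 bases before to 50 after a start were found for 7 of the 10 genes, 13 windows in all, and GPCPD1, CHKA and DGAT2 had no entry. CACGTG, the core of an E-box, was found in 2 of the 13 windows, in 1 of PEMT and 1 of LPIN2, where 7.26% of all 35116 windows held it. GTAAACA, a core that forkhead factors bind, and TCACNCCAC, a form of the sterol regulatory element, were in 0 of the 13, where 3.42% and 1.13% of all windows held them. Both strands were read. A match in letters is a description and not a binding site.

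DGAT2, which adds the last acyl chain of triglyceride, did not change detectably (chr11:75479778-75512581, plus strand, hg19). It stood at 59.3 and 62.7 CPM at 0 min, between 53.7 and 63.0 CPM from 5 to 30 min, and at 61.6 and 62.8 CPM at 240 min. The late libraries overlapped those at 0 min, and those at 5 and 30 min lay below both. Its late log2 fold change was 0.023 (SE 0.058, adjusted p = 0.785, edgeR). DGAT1, the unrelated enzyme for the same reaction, rose by 0.27 (SE 0.082, adjusted p = 0.0133, edgeR), or by 0.16 with spike-in scaling (adjusted p = 0.686), by 0.21 without 0 min replicate 1 (adjusted p = 0.0976) and by 0.23 without 240 min replicate 1 (adjusted p = 0.0965). Whether the changes of DGAT1 and DGAT2 differed was not tested. In TPM, DGAT2 made up 68.4% ± 0.496 (SD, n = 2) of the sum of both at 0 min and 64.6% ± 0.689 (SD, n = 2) at 240 min.

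**Figure D3:**
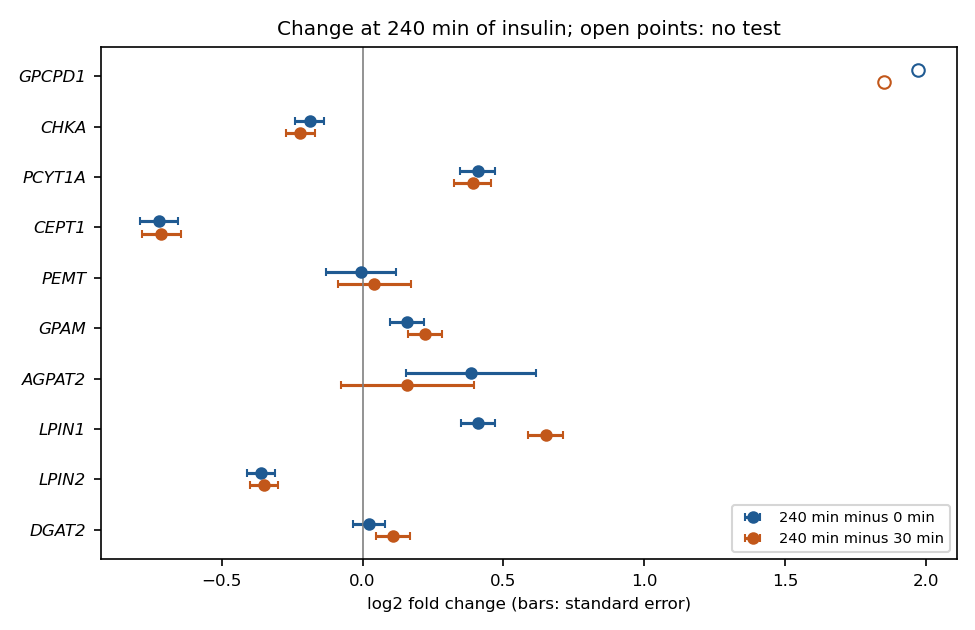
Log2 fold change of each of the 10 genes (x axis) at 240 min against 0 min (blue) and against 30 min (orange), with bars of 1 standard error (SE) derived from the edgeR test. Open points without bars are GPCPD1, at 1.97 and 1.85, which was not tested, and CEPT1 lies lowest at -0.72 and -0.71.

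Set against 30 min in place of 0 min, the same 240 min libraries gave 6 of 9 genes past the threshold, where 38.2% of all genes passed. PCYT1A, LPIN1 and GPAM were higher, where 19.8% of all genes were, and CHKA, CEPT1 and LPIN2 lower, where 18.4% were, as in the comparison with 0 min, which shares the late libraries. GPAM was higher by 0.22 (SE 0.062, adjusted p = 0.00744, edgeR), or by 0.12 without 240 min replicate 1 (adjusted p = 0.190). CHKA was lower at -0.22 (SE 0.052, adjusted p = 0.00199, edgeR). With spike-in scaling 2 of the 9 passed, CEPT1 and LPIN1.

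At the early times 0 of the 10 genes passed, where edgeR called 0.332% of all genes at 30 min, 0.137% at 10 min and 0 at 5 min against 0 min. At an unadjusted p under 0.05 there was 1 gene of the set at each time, namely LPIN1 at 30 min, GPCPD1 at 10 min and DGAT2 at 5 min (log2 fold change -0.12, unadjusted p = 0.0471, edgeR). DESeq2 and limma also called 0 of the 10 at each early time, and LPIN1 at 30 min was called by edgeR's likelihood ratio test and without the filter. Over all genes, 1976 had an unadjusted p under 0.05 at 5 min.

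In TPM, the scale on which genes can be set against each other, the order at 0 min was CHKA (104.3), DGAT2 (61.5), CEPT1 (50.4), LPIN2 (48.8), PCYT1A (47.0), GPAM (43.8), LPIN1 (28.9), PEMT (25.0), GPCPD1 (5.67) and AGPAT2 (3.82). Only CEPT1 and LPIN2 among these neighbours had libraries that overlapped. At 240 min the order was CHKA (93.7), DGAT2 (64.1), PCYT1A (63.7), GPAM (50.4), LPIN1 (39.6), LPIN2 (39.1), CEPT1 (31.5), PEMT (25.4), GPCPD1 (22.5) and AGPAT2 (5.45). DGAT2 and PCYT1A overlapped, as did LPIN1 and LPIN2. GPCPD1 was thus the last but one of the 10 at both times in TPM, after a rise from 5.67 ± 0.313 (SD, n = 2) to 22.5 ± 1.66 (SD, n = 2), and came close to PEMT without overlapping it.

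A wider list of 75 other genes of glycerophospholipid and triglyceride metabolism, ordered by 10 roles, placed the set among its neighbours. It too was made with earlier results of these data known. Of the 65 that were tested at 240 min against 0 min, 17 rose, 20 fell and 28 did not pass. The 37 calls were 56.9% of these genes, where 41.0% of all genes were called, and the median log2 fold change was -0.0074. The counts by role that follow stand beside 20.6% of all genes called higher and 20.4% called lower. With spike-in scaling 1 of the 17 and 9 of the 20 still passed, and each of the 37 kept its direction. At 240 min against 30 min, 16 rose and 20 fell, where 19.8% of all genes were called higher and 18.4% lower. At 5, 10 and 30 min against 0 min edgeR called 0 of the 65. At an unadjusted p under 0.05 there were 12, 2 and 4, where 14.3%, 5.13% and 8.12% of all genes were. DESeq2, the likelihood ratio test and limma also called 0 of them at these times.

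In the role that GPCPD1 belongs to, the hydrolysis of glycerophosphodiesters and lysophospholipids, 1 of 9 tested genes rose and 4 fell. GDPD1, a glycerophosphodiesterase of the same family, fell from 10.6 and 10.9 CPM to 6.16 and 6.47 CPM, by 0.78 on the log2 scale (SE 0.104, adjusted p = 7.72e-06, edgeR). LYPLA1, a lysophospholipase and acyl-protein thioesterase, rose by 0.14 (SE 0.056, adjusted p = 0.0449, edgeR), or by 0.029 with spike-in scaling (adjusted p = 0.952), and lost its call without any 1 library at 0, 10 or 240 min (0.11 to 0.18, adjusted p = 0.0532 to 0.231). GPCPD1, whose own rise was not tested, went opposite to GDPD1, the most changed of its neighbours in this role. The other glycerophosphodiesterases tested in this role were not called and lay between -0.15 and 0.089 on the log2 scale.

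Around the choline route 1 of 8 genes rose and 1 fell. These were PCYT1B, given above, and SLC44A3, of the choline transporter-like family, which fell by 0.24 (SE 0.068, adjusted p = 0.00841, edgeR), or by 0.17 without 0 min replicate 2 (adjusted p = 0.154) and by 0.21 without 240 min replicate 2 (adjusted p = 0.0561). With spike-in scaling SLC44A3 was at -0.35 (adjusted p = 0.288). In the ethanolamine and serine branch 5 of 7 rose and 1 fell, where 20.6% of all genes rose and 20.4% fell. Of these, 0 of the 5 rises passed with spike-in scaling, and the fall did. The ethanolamine kinases moved apart, since ETNK2 rose by 0.41 (SE 0.084, adjusted p = 0.000612, edgeR), or by 0.30 with spike-in scaling (adjusted p = 0.363), while ETNK1 fell by 0.47 (SE 0.053, adjusted p = 9.16e-07, edgeR).

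Among genes that supply and acylate glycerol 3-phosphate, 2 of 5 rose and 2 fell. GPD1, which makes glycerol 3-phosphate from a glycolytic intermediate, rose from 24.5 and 23.3 CPM to 42.7 and 42.6 CPM, by 0.84 (SE 0.076, adjusted p = 7.27e-08, edgeR). GK, glycerol kinase, which makes it from glycerol, fell from 33.6 and 31.5 CPM to 20.3 and 20.6 CPM, by 0.67 (SE 0.077, adjusted p = 1.28e-06, edgeR). Both passed with spike-in scaling too. GPD1 and GK, which make the substrate of GPAM from different sources, thus moved in opposite directions.

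Of the enzymes that acylate lysophosphatidic acid, as AGPAT2 does, 1 of 5 rose and 2 fell. AGPAT5 rose by 0.21 (SE 0.050, adjusted p = 0.00215, edgeR) and AGPAT1 fell by 0.35 (SE 0.053, adjusted p = 3.42e-05, edgeR). With spike-in scaling neither passed, at 0.094 for AGPAT5 (adjusted p = 0.819) and -0.47 for AGPAT1 (adjusted p = 0.108). Of 4 other phosphatidic acid phosphatases, 1 rose and 2 fell, with PPAP2A, a lipid phosphate phosphatase, higher by 0.33 (SE 0.118, adjusted p = 0.0298, edgeR) and LPIN3 lowest. The rise of PPAP2A was 0.26 without 0 min replicate 1 (adjusted p = 0.149) and 0.22 without 240 min replicate 1 (adjusted p = 0.301), and 0.23 with spike-in scaling (adjusted p = 0.584). DGAT1 was the 1 of 4 other diacylglycerol and monoacylglycerol acyltransferases that passed.

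Further from the set, 2 of 7 genes of the CDP-diacylglycerol route rose and 3 fell. CRLS1, cardiolipin synthase, rose by 0.26 (SE 0.054, adjusted p = 0.000738, edgeR), or by 0.14 with spike-in scaling (adjusted p = 0.713), and CDIPT, which makes phosphatidylinositol, fell by 0.47 (SE 0.066, adjusted p = 1.41e-05, edgeR). Of 7 acyltransferases that remodel phospholipids 0 rose and 3 fell, led by LPCAT4, which fell by 0.47 (SE 0.120, adjusted p = 0.00406, edgeR), or by 0.59 with spike-in scaling (adjusted p = 0.0670). On lipid droplets and in triglyceride hydrolysis 3 of 9 rose and 2 fell. ABHD5, the activator of adipose triglyceride lipase, rose by 0.53 (SE 0.098, adjusted p = 0.000241, edgeR), or by 0.41 with spike-in scaling (adjusted p = 0.247), and the droplet coat protein PLIN3 fell by 0.44 (SE 0.077, adjusted p = 0.000133, edgeR).

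**Figure D4:**
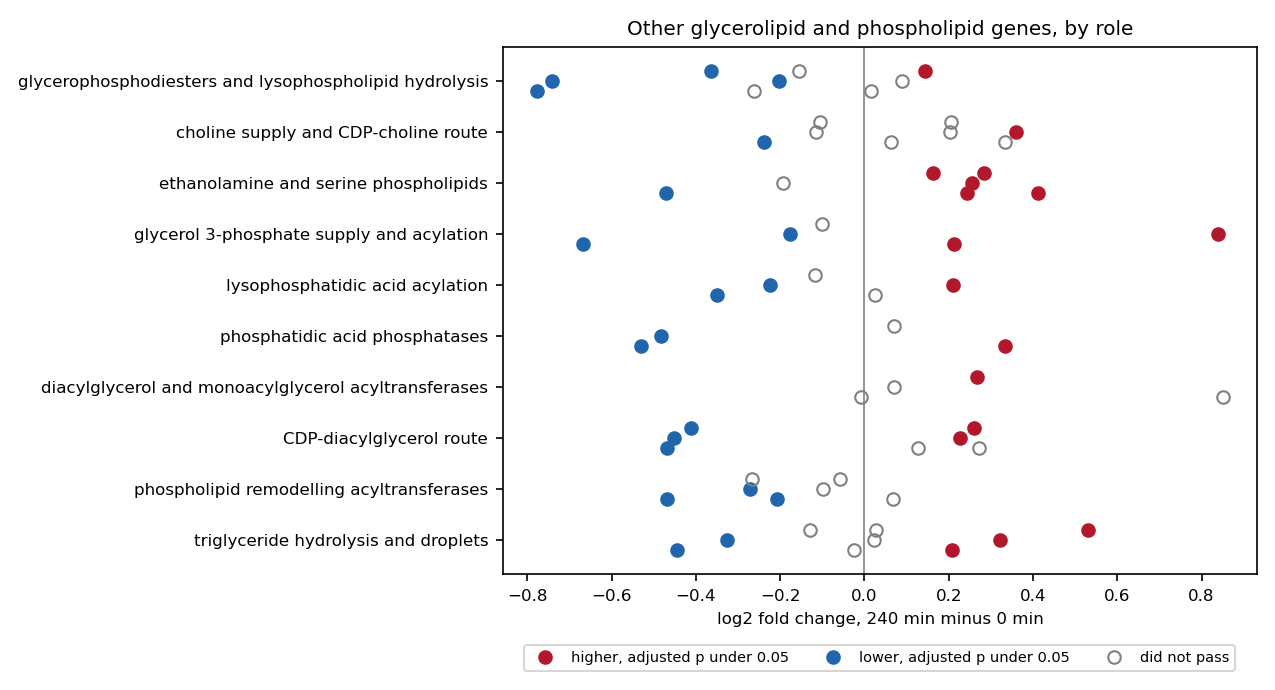
Log2 fold change at 240 min against 0 min (x axis) of the 65 other tested genes, 1 point per gene, by role (y axis). Filled points passed an adjusted p of 0.05 (17 red, higher, and 20 blue, lower) and open points did not, and GDPD1 at -0.78 and GPD1 at 0.84 are the outermost that passed.

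CHKB, the paralogue of CHKA, could not be followed. It had 4 to 13 counts in each library and failed the filter on low counts, whereas StringTie gave it up to 16.3 TPM and 0 in 30 min replicate 2. CHKB shares its locus with a read-through transcript, and the part of this in its values was not tested.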

How the data were processed

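The 10 genes and the gene lists were chosen with earlier results of these data known. Per the study's methods, the authors trimmed single-end reads with Trim Galore 0.6.4, aligned them to hg19 with STAR 2.6.1d, counted them per gene as reverse-stranded with featureCounts 1.6.4, and deposited raw counts. They also deposited StringTie abundances in TPM. IR ChIP-seq reads were aligned by the authors with BWA 0.7.17-r1188, peaks were called with MACS2 2.2.7.1, and the authors deposited each peak with its score and its HOMER annotation.

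Counts were fitted here with edgeR 4.0.16 in R 4.3.3 (TMM, filterByExpr, quasi-likelihood test, Benjamini-Hochberg over 13852 genes, threshold 0.05) in 1 model of 10 libraries without a replicate block. The script was tested on simulated data with 1 fixed spread for all genes. At 240 min against 0 min it recovered 71.5% of 200 planted changes, with 6 false among 149 calls. Of the called genes of the set, only CEPT1 changed by as much as the smallest planted change in that comparison. Far fewer genes were planted than were called in the data, so these rates do not carry over to the smaller changes reported here. The SE was derived from this test, as the absolute log2 fold change divided by the square root of its F statistic. CPM are counts scaled by library total after TMM. The 92 ERCC rows, 1.59% to 2.36% of the counts, entered neither library sizes nor tests. The spread between replicates exceeded sampling noise at every time (chi-square over its degrees of freedom, 2.80 to 6.30). Genes named are the 10, their paralogues where compared, the largest called rise and fall in each role, the 5 genes most correlated with GPCPD1 and its neighbours in rank.

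Alternatives were DESeq2 1.42.0, the likelihood ratio test, RLE, scaling by ERCC totals, no filter or at least 10 counts in every library, only the times compared, a replicate block, thinning to the smallest total, limma 3.58.1 on log2 TPM with a pseudocount of 1 or 0.1, each library left out, and for peaks windows of 1 and 20 kb, peaks above the median score and the HOMER gene. Tables were made with Python 3.11.15 and pandas 2.3.3. The ChIP input was not analysed here.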

Additional observations from a re-analysis of the deposited data

How the results depend on the processing

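Scaling by the ERCC spike-ins moved the counts most in the comparisons of 240 min. At 240 min against 0 min it left 1 of the 9 tested genes of the set, 10 genes of the wider list and 1059 of all genes, against 6, 37 and 5676, and called 31.3% of these higher, against 50.2% with TMM and 61.9% and 62.3% with limma on log2(TPM + 1) and log2(TPM + 0.1). Against 30 min it left 2, 6 and 917, against 6, 36 and 5297, with 62.5% higher against 51.8%. The log2 fold change of GPCPD1 at 240 min against 0 min was 1.85 with it and 1.81 with limma on log2(TPM + 1), against 1.97. At 30 min against 0 min, where 46 genes passed, the likelihood ratio test gave 96, no filter 160, spike-in scaling 4 and limma 1 and 2 with pseudocounts of 1 and 0.1. The first of these and no filter each added 1 gene of the set, LPIN1, and no filter added 1 gene of the wider list, PNPLA3. At 10 min, where 19 passed, they gave 43 (likelihood ratio test), 74 (no filter), 40 (only the times compared) and 0 and 3 (limma). At 5 min, where 0 passed, they gave 2 (DESeq2), 19 (likelihood ratio test), 2 (spike-in scaling), 144 (no filter, among them PLIN3, 1 gene of the wider list), 1 (only the times compared) and 1 and 1 (limma). PNPLA3 and PLIN3 are named here because of these calls. The genes with an IR peak were 1 of 10, 2 with a window of 20 kb and 0 by the gene HOMER names. The causes were not tested.

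With each library left out in turn, the genes of the set called were 4 to 6 at 240 min against 0 min, 5 to 6 against 30 min and 0 to 1 at 30 min, the wider list gave 25 to 37 and 27 to 36 at 240 min, and all genes 3893 to 5785 and 3947 to 5318 at 240 min, 18 to 53 at 30 min, 9 to 24 at 10 min and 0 to 22 at 5 min. The 25 came without 0 min replicate 2. With the replicate number as a block, 6 genes of the set and 5845 of all genes passed at 240 min against 0 min, and 1 of all genes at 5 min. The replicate differences of 2 times correlated only between -0.12 and 0.13 over genes. Whether libraries of the same replicate number belong together cannot be told from this, and the labels do not say. No alternative turned the direction of a called gene of the set. With 2 libraries at each time, these fits do not show which library of a pair is unusual, and with 32 to 118 counts AGPAT2 allowed no firm statement.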
